A study of Mus musculus with 12 samples.

Results

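Vegfa, Vegfd (listed on the array under the old symbol Figf), Fgf2 and Pdgfa encode 4 secreted growth factors of blood and lymph vessels. They were chosen by name, with earlier results of these data known. They are 4 of the 8267 genes that could be named on the arrays, and each was represented by 1 probe, so no second probe of any of them could be compared. Their RNA was measured in MECs, a line of endothelial cells from the mouse embryo, after mock treatment or after 4, 12 or 24 h with the bone morphogenetic protein BMP6. Each of the 4 groups held 3 arrays, which the labels call independent biological replicates. The labels give the dose of BMP6 no value and the mock-treated controls no time, so every treated group was set against the same 3 control arrays. On each array cell RNA was labelled with Cy5 and the universal mouse reference with Cy3, with no dye swap, so each value is a log2 ratio of cells over reference. Neither the log base nor the sign is stated in the sources used here. If the ratios ran the other way, each rise below would be a fall and each fall a rise, and with natural logarithms each fold would be larger, while the adjusted p-values would be the same. Levels on this scale are compared between groups for 1 gene at a time and not between genes.

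Each of the 4 factors acts by binding a receptor tyrosine kinase at the cell surface. Vegfa is the main growth factor of endothelial cells and signals through Kdr, with Flt1 as a high-affinity receptor that can hold it back. Vegfd is a relative of Vegfa known for lymph vessel growth, and its receptor is Flt4. Fgf2 drives growth and migration of many cell types through the FGF receptors and needs heparan sulfate to bind them, and Pdgfa acts on cells with PDGF receptor alpha, mostly mesenchymal cells. BMP6 itself signals through serine/threonine kinase receptors and Smad proteins, for which Id1, Id2 and Id3 are standard target genes.

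The gene names rest on a probe order that was recovered from the data. In that order the first 2 probes of a gene correlated at r = 0.471 across 1831 genes (genes, not replicates), against 0.021 in the deposited order. Per RefSeq (GRCm38.p6), Vegfa (gene ID 22339) lies on chromosome 17 from 46016993 to 46032377, Vegfd (14205) on chromosome X from 164373522 to 164402650, Fgf2 (14173) on chromosome 3 from 37348477 to 37410106, and Pdgfa (18590) on chromosome 5 from 138976014 to 139000792. Where in its gene each probe sits, in an exon, an intron or a UTR, is not given in the sources used here.

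The DNA upstream of the 4 genes is shown because 3 of them changed at 4 h, Fgf2 and Pdgfa one way and Vegfd the other. The sequences are those of RefSeq (GRCm38.p6), which had an entry for 4 of 4 genes. Those of Vegfa, Vegfd and Pdgfa end at the base before the listed transcription start. They are chr17:46032378-46032627 on the minus strand, chrX:164373272-164373521 on the plus strand, chr3:37348403-37348476 on the plus strand and chr5:138994945-138995194 on the minus strand. For Fgf2, 74 bases are printed, the part of the window of 250 bases that lies before the RefSeq gene, so they end just before the gene and short of the listed start. For each of the others 250 bases are printed. The Pdgfa stretch lies inside the RefSeq gene, whose span begins farther upstream than the listed start. Capitals mark matches to GGGCGG, the GC box, on either strand, or to TATAAA, the TATA box.
Vegfa: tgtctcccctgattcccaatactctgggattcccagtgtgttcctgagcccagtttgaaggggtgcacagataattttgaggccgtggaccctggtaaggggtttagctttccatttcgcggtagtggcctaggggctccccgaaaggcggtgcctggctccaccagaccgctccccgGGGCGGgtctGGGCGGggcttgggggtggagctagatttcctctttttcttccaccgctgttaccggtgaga
Vegfd: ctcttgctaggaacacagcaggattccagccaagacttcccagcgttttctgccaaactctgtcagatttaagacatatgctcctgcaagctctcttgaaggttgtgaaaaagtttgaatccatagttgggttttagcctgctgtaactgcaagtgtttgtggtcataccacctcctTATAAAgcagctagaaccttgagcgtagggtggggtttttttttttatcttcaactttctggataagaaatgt
Fgf2: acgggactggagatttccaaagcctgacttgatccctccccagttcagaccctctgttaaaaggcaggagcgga
Pdgfa: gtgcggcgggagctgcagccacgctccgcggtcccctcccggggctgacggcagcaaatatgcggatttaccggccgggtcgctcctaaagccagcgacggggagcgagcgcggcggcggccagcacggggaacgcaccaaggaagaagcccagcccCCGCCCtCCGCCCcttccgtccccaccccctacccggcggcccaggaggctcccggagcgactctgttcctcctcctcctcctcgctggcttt

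The 4 upstream stretches differed in base composition. Over the full window of 250 bases, G and C made up 42.4% of the Vegfd stretch, 59.2% of that of Vegfa, 62.4% of that of Fgf2 and 72.4% of that of Pdgfa. GGGCGG was found in the windows of Vegfa (2 matches), Pdgfa (2 matches, both on the opposite strand) and Fgf2 (1 match, in the part not printed), and in 33.0% of all 27025 upstream windows of this length, 1 a gene. TATAAA was found in the Vegfd window only, starting 73 bases before the start, and in 13.0% of all windows. GGCGCC, a GC-rich palindrome bound by Smad proteins, had 1 match, in Fgf2, starting 80 bases before the start, against 9.6% of all windows. It lies at chr3:37348561-37348590 on the plus strand, inside the RefSeq Fgf2 gene, with the match in capitals.
Fgf2 site: ttgcaacttggaGGCGCCgggcgtggggag
The AP-1 motif TGANTCA (6.9% of all windows), the core ACGTG of hypoxia response elements (16.5%) and the E-box CACGTG (6.0%), which contains ACGTG, had 0 matches in the 4 windows. All 6 motifs were searched on both strands and were chosen after the expression values had been seen. A match is a description of the letters and not a site of binding.

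At 4 h of BMP6, Fgf2 and Pdgfa rose and Vegfd fell, with Fgf2 1.54-fold and Pdgfa 1.36-fold higher and Vegfd 1.345-fold lower, while Vegfa did not pass the test. At 12 h only Vegfd passed, still lower, and at 24 h 0 of the 4 passed. These calls come from a limma fit in which arrays with the same replicate number in the titles were paired, and a gene was called where its p, adjusted over the 8267 genes by Benjamini-Hochberg, was under 0.05. Without the pairing, the limma fit called 0 of the 4 at each time, while 3, 1 and 0 had an unadjusted p under 0.05 at 4, 12 and 24 h, as did 614, 393 and 166 of the 8267 genes. After adjustment the methods' t-test called 0 of the 4, and 0, 1 and 0 of the 8267 genes at 4, 12 and 24 h. Before adjustment it found 2, 1 and 0 of the 4, and 474, 297 and 175 of the 8267 genes.

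**Figure D1:**
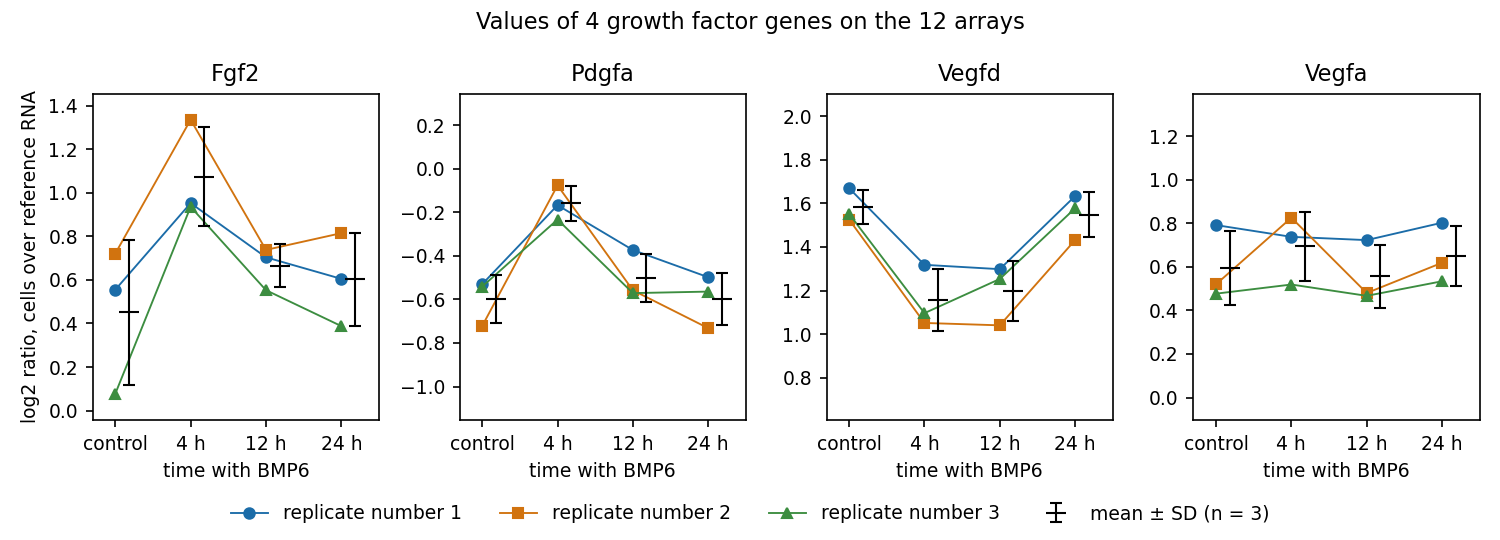
Log2 ratio of cells over reference (vertical axis, the same span in each panel) for Fgf2, Pdgfa, Vegfd and Vegfa on the 12 arrays, by group on the horizontal axis, which is not to scale in time. Points joined by lines share a replicate number, and bars beside them give mean ± SD (n = 3). At 4 h all 3 arrays of Fgf2 and of Pdgfa lie above the 3 control arrays and all 3 of Vegfd lie below them.

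Fgf2 stood at log2 ratios of 0.555, 0.72 and 0.077 on control arrays 1, 2 and 3, and at 0.95, 1.34 and 0.94 on the 3 arrays at 4 h. The lowest of the 4 h arrays lay 0.215 above the highest control, so the groups did not overlap, although control replicate 3 was far below the other controls. The mean went from 0.45 ± 0.33 (SD, n = 3) to 1.075 ± 0.23 (SD, n = 3). That was a log2 rise of 0.62 (95% confidence interval 0.43 to 0.82, SE 0.087), or 1.54-fold, with an adjusted p of 0.00328 from the paired limma fit and 0.194 from the unpaired one. The 3 pairs rose by 0.40, 0.615 and 0.86, the last of them the pair with the low control array.

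At 12 h the Fgf2 arrays read 0.70, 0.74 and 0.55 (0.665 ± 0.098, SD, n = 3), and at 24 h 0.605, 0.815 and 0.39 (0.60 ± 0.21, SD, n = 3). All 3 pairs were higher than control at both times, but the arrays overlapped the controls. The log2 difference was 0.21 at 12 h (95% confidence interval 0.020 to 0.41, paired limma adjusted p 0.269) and 0.15 at 24 h (-0.043 to 0.35, adjusted p 0.749), and neither passed. In order of level, control, 24 h and 12 h did not differ from their neighbours beyond the larger SD, and 4 h stood 0.41 above 12 h, with a larger SD of 0.23.

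Pdgfa, whose probe read below the reference on all 12 arrays, stood at -0.53, -0.72 and -0.54 on control arrays 1, 2 and 3, and at -0.17, -0.076 and -0.23 at 4 h. The groups did not overlap, with a gap of 0.30 between them, and here the 4 h arrays were close together. The mean went from -0.60 ± 0.11 to -0.16 ± 0.079 (SD, n = 3 each). The log2 rise was 0.44 (95% confidence interval 0.28 to 0.60, SE 0.071), or 1.36-fold, with an adjusted p of 0.00643 from the paired limma fit and 0.0701 from the unpaired one. The pairs rose by 0.36, 0.65 and 0.31.

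Pdgfa was near the control level at the later times. The arrays read -0.37, -0.56 and -0.57 at 12 h (-0.50 ± 0.11, SD, n = 3) and -0.50, -0.73 and -0.56 at 24 h (-0.60 ± 0.12, SD, n = 3), and both groups overlapped the controls. The 24 h mean was the control mean to 2 decimals, and the interval of the difference ran from -0.16 to 0.16 (adjusted p 0.999, paired limma fit). At 12 h the difference was 0.097 (-0.062 to 0.26, adjusted p 0.58). Control, 24 h and 12 h did not differ from their neighbours in level beyond the larger SD, and 4 h stood 0.34 above 12 h, with a larger SD of 0.11.

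Vegfd was lower than control at both 4 and 12 h. It stood at 1.67, 1.53 and 1.55 on control arrays 1, 2 and 3, at 1.32, 1.05 and 1.096 at 4 h, and at 1.30, 1.04 and 1.25 at 12 h. Both treated groups lay wholly below the controls, with gaps of 0.21 and 0.23. The mean of 1.58 ± 0.077 in the controls compared with 1.155 ± 0.14 at 4 h and 1.197 ± 0.14 at 12 h (SD, n = 3 each).

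At 4 h Vegfd fell by 0.43 on the log2 scale (95% confidence interval of the change -0.54 to -0.31, SE 0.052), with an adjusted p of 0.00177 from the paired limma fit and 0.107 from the unpaired one. At 12 h it fell by 0.39 (interval of the change -0.50 to -0.27, SE 0.052; paired limma adjusted p 0.00647, unpaired 0.397). The 3 pairs changed by -0.35, -0.475 and -0.46 at 4 h and by -0.37, -0.49 and -0.30 at 12 h, so the fall was of like size in each. The 12 h call was lost without 12 h replicate 2 (adjusted p 0.0635).

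By 24 h the Vegfd arrays read 1.63, 1.43 and 1.58 (1.55 ± 0.10, SD, n = 3) and overlapped the controls. The difference from control was -0.035 (95% confidence interval -0.15 to 0.080, paired limma adjusted p 0.905). In order of level, 4 h and 12 h did not differ beyond the larger SD, 24 h stood 0.35 above 12 h with a larger SD of 0.14, and control lay within an SD of 24 h.

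Vegfa showed no difference from control that passed at any time. It stood at 0.79, 0.52 and 0.48 on control arrays 1, 2 and 3 (0.60 ± 0.17, SD, n = 3), at 0.74, 0.83 and 0.52 at 4 h (0.69 ± 0.16), at 0.72, 0.48 and 0.47 at 12 h (0.56 ± 0.14) and at 0.80, 0.62 and 0.53 at 24 h (0.65 ± 0.14). The groups overlapped throughout, and replicate 1 was the highest array of its group at every time but 4 h. The log2 differences from control were 0.098 at 4 h (95% confidence interval -0.052 to 0.25), -0.040 at 12 h (-0.19 to 0.11) and 0.056 at 24 h (-0.095 to 0.21). Their adjusted p-values in the paired limma fit were 0.462, 0.837 and 0.887. The interval at 4 h leaves out a rise as large as the estimate for Fgf2 or Pdgfa, but these intervals cover 1 probe and 3 pairs. No neighbours in the order of the 4 Vegfa levels differed beyond the larger SD.

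**Figure D2:**
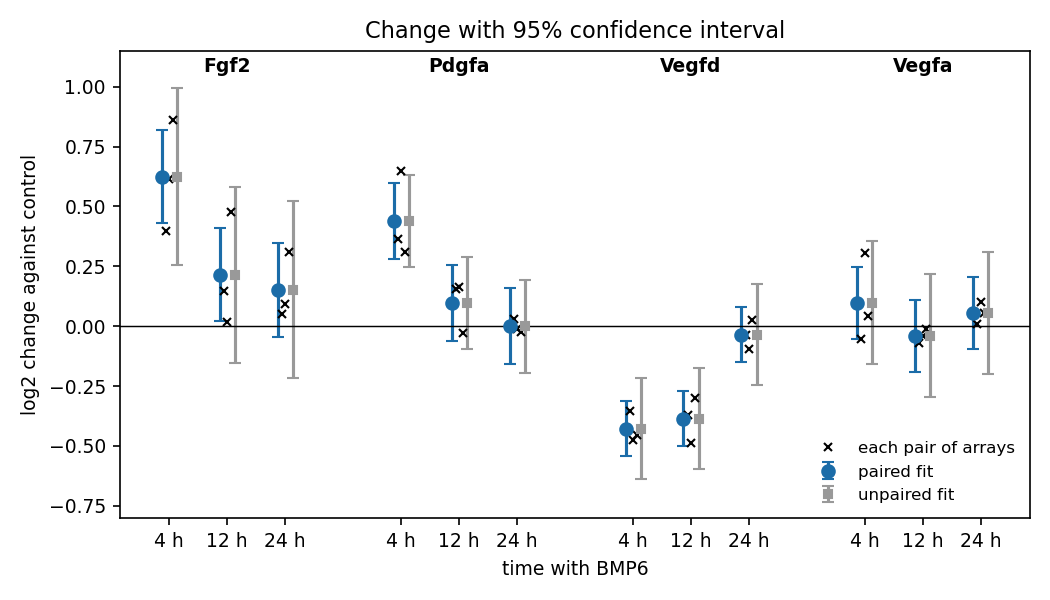
Log2 change against control (vertical axis) of the 4 genes at 4, 12 and 24 h. Circles and their bars give the paired limma fit with 95% confidence intervals, squares and grey bars the unpaired fit, and crosses the 3 pairs of arrays. The paired intervals leave out 0 for Fgf2, Pdgfa and Vegfd at 4 h and for Vegfd at 12 h. The interval of Fgf2 at 12 h also leaves out 0 (0.020 to 0.41), but its adjusted p was 0.269.

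The 4 genes were chosen with earlier results of these data known, so the shares over all genes are a description and no test. Set against all genes, the calls at 4 h were 2 of 4 higher, where 2.27% of the 8267 genes were called higher. Lower calls were 1 of 4, against 3.75%. At 12 h 0 of 4 were called higher (0.472% of all genes) and 1 of 4 lower (1.42%). At 24 h 0 of 4 were called in either direction, by limma with the pairing, where 0.0726% of all genes were called higher and 0.0968% lower. In that fit 0 of 4 had an unadjusted p under 0.05 at 24 h, against 656 of the 8267 genes. The unpaired limma fit called 0.169% of all genes at 4 h and 0 at 12 and 24 h. The 3 treated arrays did not overlap the 3 controls in 3 of the 4 genes at 4 h, in 1 at 12 h and in 0 at 24 h, against 10.1%, 7.27% and 4.48% of all genes.

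One F test a gene over the 3 comparisons with control, from the paired limma fit, called 4.98% of all genes and 3 of the 4 here. The adjusted p-values were 0.00242 for Vegfd, 0.0115 for Fgf2, 0.0141 for Pdgfa and 0.525 for Vegfa, and in the unpaired fit 0.186, 0.632, 0.186 and 1. The 4 genes also differed in how their variance was divided. The treatment groups held 80.3% of the sum of squares of Vegfd, 81.4% of that of Pdgfa and 59.5% of that of Fgf2, against 15.0% for Vegfa and a median of 18.9% over all genes. For Vegfa the replicate numbers held 64.0%, against a median of 51.2% over all genes, and for Vegfd and Pdgfa 16.6% and 7.3%.

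The changes between times were tested directly, in the same paired limma fit and without the control arrays in the contrast. From 4 to 24 h, Vegfd rose by 0.39 (95% confidence interval 0.28 to 0.51, adjusted p 0.00449), higher in 3 of 3 pairs. Over the same span Fgf2 fell by 0.47 (interval of the change -0.67 to -0.28, adjusted p 0.0158) and Pdgfa fell by 0.44 (-0.60 to -0.28, adjusted p 0.00933), each lower in 3 of 3 pairs. Vegfa differed by -0.042 (-0.19 to 0.11, adjusted p 0.798). So 1 of 4 was called higher, against 1.85% of all genes, and 2 of 4 lower, against 2.2%. These contrasts share the 4 h arrays with the comparison of 4 h with control, so a high or low 4 h array moves both. In the unpaired limma fit the adjusted p-values of Vegfd, Fgf2 and Pdgfa were 0.204, 0.48 and 0.112.

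From 4 to 12 h the differences of Fgf2 and Pdgfa fell just short of the threshold. Over that span Fgf2 differed by -0.41 (95% confidence interval -0.60 to -0.22, adjusted p 0.0556) and Pdgfa by -0.34 (-0.50 to -0.18, adjusted p 0.0527), each lower in 3 of 3 pairs. Vegfd differed by 0.042 (-0.073 to 0.16, adjusted p 0.749) and Vegfa by -0.14 (-0.29 to 0.013, adjusted p 0.377). The paired limma fit called 0 of the 4, where 0.266% of all genes were called higher and 1.03% lower, all after adjustment. Before adjustment p in that fit was 8.07e-04 for Fgf2, 6.89e-04 for Pdgfa, 0.436 for Vegfd and 0.0685 for Vegfa. Fgf2 and Pdgfa ranked 120 and 108 by p among the 8267 genes. From 12 to 24 h, Vegfd rose by 0.35 (0.24 to 0.47, adjusted p 0.0448, unpaired 1), higher in 3 of 3 pairs, so 1 of 4 was called higher against 0.0847% of all genes, and 0 of 4 lower against 0.0242%. Fgf2, Pdgfa and Vegfa differed by -0.062, -0.097 and 0.095 over that span and did not pass.

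Not all of these calls were equally firm when arrays were left out. The 4 h calls of Vegfd, Fgf2 and Pdgfa passed in each of the 12 fits that left out 1 array, with adjusted p-values of at most 0.0154, 0.021 and 0.0416. Leaving out an array of a group not compared cannot move the estimate. It changes only the spread and the adjusted p, so such fits are a weaker check. Without all 4 arrays of replicate 2, the 4 h calls of Vegfd, Fgf2 and Pdgfa were lost (0.0806, 0.0795 and 0.121). Their log2 changes in that fit were -0.404, 0.628 and 0.336, beside -0.428, 0.624 and 0.439 with all 12 arrays. The 24 h against 4 h call of Vegfd passed in 12 of the 12 fits that left out 1 array. That of Pdgfa passed in 11, missing without 24 h replicate 2 (0.0595). For Fgf2 it passed in 7, missing without 4 h replicate 2 (0.0862), 4 h replicate 3 (0.0838) or any 24 h array (0.0641, 0.0741 and 0.0803 without replicates 1, 2 and 3). The 24 h against 12 h call of Vegfd passed in 2 of the 12, with adjusted p-values from 0.0306 to 0.318. Without all arrays of replicate 2 or 3, the 24 h against 4 h call was also lost for Vegfd (0.124 and 0.0588), Pdgfa (0.155 and 0.0682) and Fgf2 (0.193 and 0.0906). For Fgf2 it was lost without replicate 1 too (0.0518), and the 24 h against 12 h call of Vegfd was lost without replicate 1, 2 or 3 (0.521, 0.627 and 0.162).

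Across the 12 arrays, after the mean of each replicate number was subtracted, Fgf2 and Pdgfa correlated at r = 0.838. Vegfd correlated with them at -0.723 and -0.743, and Vegfa with Fgf2, Pdgfa and Vegfd at 0.532, 0.578 and -0.074. These are descriptions over arrays that share 4 treatment groups and a common reference RNA.

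By the same measure, the named genes whose patterns were most like each of the 4 were picked from all 8267. They were chosen for their pattern on these arrays, so their changes and adjusted p-values describe them and are no further test. Those nearest to Fgf2 were Ammecr1 (r = 0.988), Zfp451 (0.971) and Raph1 (0.960), whose log2 changes at 4 h were 0.23, 0.16 and 0.25 (paired limma adjusted p 0.024, 0.0575 and 0.0233), each under that of Fgf2. Those nearest to Pdgfa were Creb3l2 (0.980), Dusp6 (0.979) and Bok (0.977), with changes of 0.47, 0.71 and 0.48 at 4 h (adjusted p 0.0179, 0.00246 and 0.00353). Dusp6, a phosphatase that shuts off ERK kinases and is itself induced by growth factor signalling, is described again among the feedback genes. Those nearest to Vegfd were Tmem223 (0.975), Tle6 (0.972) and Plin3 (0.969). Tle6 changed by -0.37 at both 4 and 12 h (adjusted p 0.0169 and 0.0362) and Plin3 by -0.25 at both (0.0204 and 0.0469), while Tmem223 differed by only -0.075 and -0.072. Those nearest to Vegfa, Tor3a (0.873), Smpd3 (0.869) and Ttf1 (0.853), did not pass at any time. Without the subtraction of replicate means, these correlated with Vegfa at only 0.264, -0.272 and -0.126. For the genes nearest to Fgf2, Pdgfa and Vegfd, r without it ran from 0.523 (Plin3) to 0.983 (Ammecr1).

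**Figure D3:**
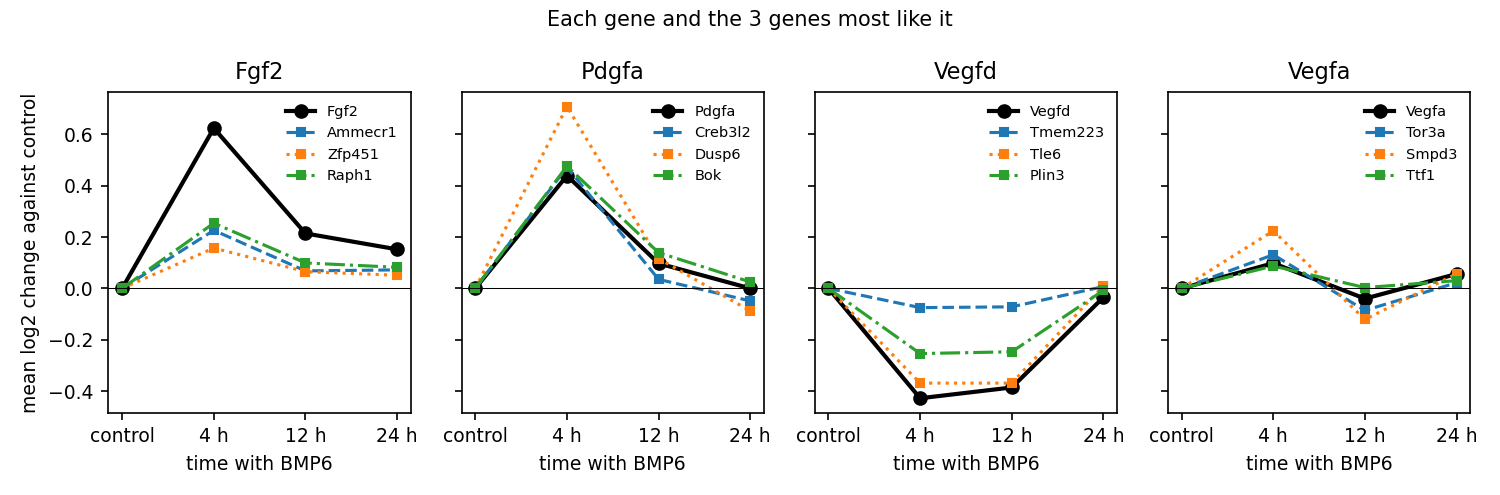
Mean log2 change against control (vertical axis) of Fgf2, Pdgfa, Vegfd and Vegfa (black) and of the 3 named genes most like each. Groups are on the horizontal axis, which is not to scale in time. The 3 were picked by correlation over the 12 arrays after the mean of each replicate number was subtracted. Likeness is of shape and not of size: Tmem223 follows Vegfd at r = 0.975 with a change of only -0.075 at 4 h.

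The genes around the 4 factors were taken from 7 lists chosen by function, with 88 of 142 listed genes measured. The lists were drawn up with earlier results of these data known, so the shares over all genes are no test of them. At 4 h, 13 of the 88 rose and 4 fell in the paired limma fit, where 2.27% and 3.75% of all genes did. At 12 h 2 rose and 3 fell, against 0.472% and 1.42% of all genes, and at 24 h 0 rose and 2 fell, against 0.0726% and 0.0968%. The 4 lower at 4 h are thus near the share over all genes. The unpaired limma fit called 1 of them at 4 h, the ligand Hbegf, and 0 at 12 and 24 h. The median log2 change of the 88 was 0.004, -0.025 and -0.005 at the 3 times, beside -0.006, -0.002 and -0.005 over all genes. Of the 17 calls at 4 h, 8 passed in each of the 12 fits that left out 1 array, as did 1 of 5 at 12 h and 0 of 2 at 24 h.

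Among the other ligands, 3 of 14 measured rose at 4 h, 0 fell, and the median log2 change was 0.069. The EGF receptor ligand Hbegf rose by 0.98 (adjusted p 4.85e-04, unpaired 0.00152), from a mean of 0.093 ± 0.12 to 1.07 ± 0.19 (SD, n = 3), and was still higher by 0.47 at 12 h (0.0315). Ereg, which also binds the EGF receptor, rose by 0.54 (0.00872), and Fgf7, a growth factor for epithelial cells, by 0.32 (0.0411). Of the closest relatives of the 4, Vegfc differed by -0.041 at 4 h (0.818), Pdgfb by 0.071 (0.513) and Pdgfc by 0.073 (0.454), and none of these 3 passed at any time. Hbegf at 4 h held whichever array was left out. Ereg missed without control replicate 2 (0.0525) or 4 h replicate 3 (0.0513). Fgf7 missed without control replicate 1, control replicate 2, 4 h replicate 2, 4 h replicate 3, any 12 h array or 24 h replicate 1 (0.0508 to 0.164). Hbegf at 12 h missed without control replicate 1, control replicate 2, 12 h replicate 1, 12 h replicate 2 or any 24 h array (0.0510 to 0.167).

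Among receptors and co-receptors, 3 of 16 rose at 4 h and 0 fell, with a median log2 change of 0.036. Fgfr3, a receptor of the FGF family, rose by 0.29 at 4 h (paired limma adjusted p 0.0182) and by 0.275 at 12 h (0.0469). Flt1, the high-affinity receptor of Vegfa, rose by 0.23 at 4 h (0.0366), and the heparan sulfate proteoglycan Sdc1 by 0.22 (0.0318). Kdr and Flt4, the receptors through which Vegfa and Vegfd signal, differed by 0.068 (0.721) and 0.097 (0.256) at 4 h and did not pass at any time. Met, the receptor of Hgf, fell by 0.24 at 12 h (0.0469). Pdgfra, the receptor of Pdgfa, was not analysed here. Fgfr3 missed the threshold at 4 h without 4 h replicate 2 (0.0865). Flt1 missed it without any control array, 4 h replicate 2 or 3, any 12 h array or 24 h replicate 3 (0.0586 to 0.147), and Sdc1 without any control or 4 h array, 12 h replicate 1 or 3 or 24 h replicate 3 (0.0506 to 0.126). At 12 h, Fgfr3 held without 4 h replicate 2 or 3 and missed without each of the other 10 arrays (0.0554 to 0.193). Met at 12 h missed without control replicate 1 or 2, 4 h replicate 1, any 12 h array or any 24 h array (0.0648 to 0.193).

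Of the genes that carry the signal inside the cell, 1 of 11 passed at 4 h: Gab1, an adaptor that links receptors to PI3 kinase, fell by 0.27 (paired limma adjusted p 0.0175), and the median of the list was -0.006. It missed without control replicate 2 (0.0853), 4 h replicate 2 (0.0845) or 4 h replicate 3 (0.0781). At 12 and 24 h 0 of 11 passed in the paired limma fit, with 1 and 0 at an unadjusted p under 0.05, beside 1277 and 656 of all 8267 genes, and the unpaired fit called 0.

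Among inhibitors and feedback regulators, 1 of 11 rose and 1 fell at 4 h. Dusp6 rose by 0.71 (paired limma adjusted p 0.00246, unpaired 0.418), from -0.78 ± 0.31 to -0.075 ± 0.42 (SD, n = 3). Adamts1, a secreted metalloprotease that can bind Vegfa and hold back vessel growth, fell by 0.81 at 4 h (1.87e-04, unpaired 0.0927), by 0.62 at 12 h (0.00205) and by 0.42 at 24 h (0.0285), lower in 3 of 3 pairs each time. The 4 and 12 h calls of Adamts1 and the 4 h call of Dusp6 held whichever array was left out. Adamts1 at 24 h missed without any control or 24 h array or 12 h replicate 2 (0.0680 to 0.203).

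Among growth factor response genes, 3 of 11 rose at 4 h and 0 fell, and the median of 0.14 was the highest of the 7 lists. These were Ier3 at 0.52 (paired limma adjusted p 0.0164), the transcription factor Myc at 0.32 (0.00498) and the urokinase receptor Plaur at 0.36 (0.0346). Egr1 stood at 0.44 (0.149) and Fos at -0.052 (0.814), and neither passed. Myc held whichever array was left out, and Ier3 missed without control replicate 2 (0.0756) or 4 h replicate 2 (0.0695). Plaur missed without control replicate 2 or 3, any 4 h array, 12 h replicate 1 or 24 h replicate 2 (0.0506 to 0.136).

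Vegfa is a textbook target of the hypoxia response, and of 14 genes of that response 1 rose and 1 fell at 4 h, with a median of -0.059. The glycolytic enzyme Hk2 rose by 0.35 (paired limma adjusted p 0.00724), and P4ha1, a collagen prolyl hydroxylase, fell by 0.32 (0.025). At 12 and 24 h 0 of 14 passed in the paired limma fit, with 3 and 0 at an unadjusted p under 0.05, as had 1277 and 656 of the 8267 genes. P4ha1 missed without control replicate 2 (0.105), control replicate 3 (0.0771), 4 h replicate 2 (0.0726) or 4 h replicate 3 (0.0695).

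Of the proteases and enzymes that make or trim heparan sulfate, on which Fgf2 depends, 2 of 11 rose and 1 fell at 4 h, with a median of -0.088. Ext1, which builds the heparan sulfate chain, and Hs6st1, which adds sulfate to it, each rose by 0.32 (paired limma adjusted p 0.00698 and 0.00994). Sulf1, which removes sulfate from heparan sulfate outside the cell, fell by 0.35 at 4 h (0.00382), 0.34 at 12 h (0.0108) and 0.35 at 24 h (0.0291), lower in 3 of 3 pairs each time. All 3 calls at 4 h held in each fit that left out 1 array. Sulf1 at 12 h missed without control replicate 2 (0.0557), 12 h replicate 1 (0.0695) or 12 h replicate 2 (0.0669), and at 24 h it held only without 4 h replicate 1 or 3 (0.0556 to 0.221 otherwise).

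**Figure D4:**
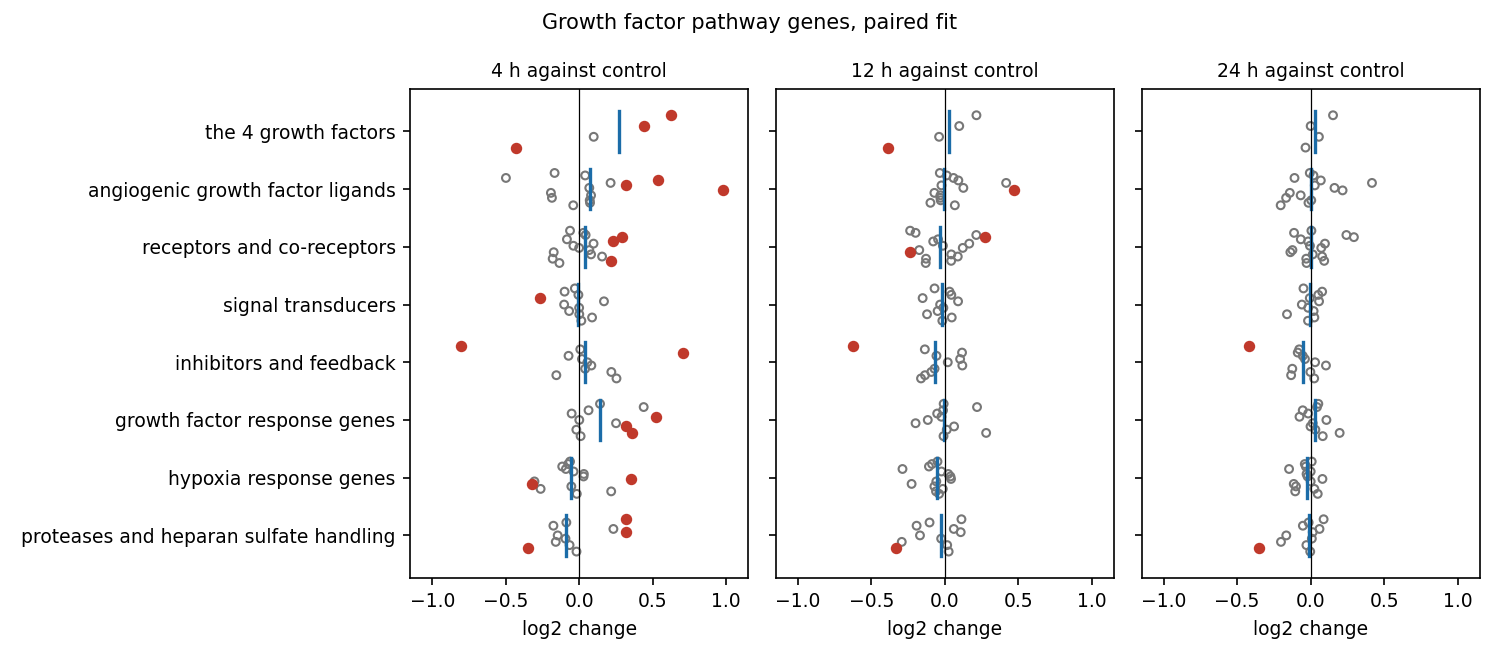
Log2 change against control in the paired limma fit (horizontal axis) for the 4 growth factors and the measured genes of 7 lists, at 4, 12 and 24 h. Filled red points passed the threshold, open points did not, and the blue line is the median of the row. The filled points number 3 and 17 at 4 h, 1 and 5 at 12 h and 0 and 2 at 24 h, for the 4 growth factors and for the lists.

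As a check of the treatment, Id1, Id2 and Id3 rose at 4 h by 0.975, 0.84 and 0.64 in the paired limma fit (adjusted p 5.80e-04, 0.0059 and 0.00177). They were still higher at 24 h, by 1.07, 1.19 and 0.92 (0.00168, 0.00869 and 0.00168), when the differences of Fgf2, Pdgfa and Vegfd from control did not pass. In the unpaired limma fit their adjusted p-values at 4 h were 0.2, 0.302 and 0.274. At 24 h Id1, Id2 and Id3 did not pass in the unpaired fit either (0.924 for Id2 and 0.924 for Id3). The other 2 measured genes of the 10 on the list of BMP targets, Hey1 and Nog, stood at 0.030 (0.785) and 0.25 (0.187) at 4 h in the paired fit and did not pass at any time. Id2 at 24 h missed without control replicate 1 (0.0602), control replicate 2 (0.0612), 24 h replicate 2 (0.0738) or 24 h replicate 3 (0.072). In RNA from whole cultures, more cells that use a gene and more of its RNA in each cell cannot be told apart.

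The labelled cell type was set against its markers. The 5 endothelial markers measured of 13 listed (Pecam1, Cdh5, Kdr, Flt1 and Esam) averaged between -1.06 and -1.01 on the control arrays, below the reference RNA, and between -1.12 and -1.003, -1.25 and -1.06, and -1.34 and -1.09 at 4, 12 and 24 h. Of these endothelial markers, Flt1 rose by 0.23 at 4 h (paired limma adjusted p 0.0366), and the others did not pass at any time. The arrays without which Flt1 missed are given above. The 5 fibroblast and mesenchymal markers measured of 9 averaged from 0.155 to 0.51 on the controls, -0.090 to 0.37 at 4 h, -0.042 to 0.33 at 12 h and 0.068 to 0.41 at 24 h. On the controls Col3a1 averaged -0.264, and the other markers of this list from 0.226 (Twist1) to 0.625 (Prrx1). Of these 5, Prrx1 fell by 0.49 at 4 h (paired limma adjusted p 0.00754) and 0.495 at 12 h (0.0173), and Col3a1 by 0.24 at 4 h (0.0363). Prrx1 at 12 h missed when replicate 1 or 2 of the control or 12 h group was left out (0.0601 to 0.109), and Col3a1 without control replicate 2 or 3, any 4 h array, any 12 h array or 24 h replicate 1 (0.0551 to 0.124). The 6 smooth muscle and pericyte markers measured of 8 averaged between -0.87 and -0.73 on the controls and between -0.83 and -0.68 at 4 h. Single markers stood far apart. On the controls Acta2, Cnn1 and Pdgfrb averaged 0.050, 0.019 and 0.063, and Myh11, Rgs5 and Des -0.484, -1.491 and -2.925. The averages thus describe each list and give no ranking of cell types. Of these 6, Cnn1 rose by 0.25 at 4 h (0.0135), but missed without control replicate 2 (0.0737) or 4 h replicate 2 (0.072). The 2 blood cell markers measured of 7 averaged from -1.148 to -1.09 on the controls and from -1.77 to -1.26 at 24 h, and neither passed. The part of these markers in the changes of Fgf2, Pdgfa and Vegfd was not tested.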

How the data were processed

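RNA of MECs was measured on 12 two-colour oligonucleotide arrays, in 4 groups of 3 taken from the sample titles. The authors scanned the arrays with a GenePix scanner and normalized them with a modified quantiles local algorithm, per the labels. The deposited values, none missing, were taken as log2 ratios. Medians of the arrays ran from -0.044 to 0.002, with SDs from 0.607 to 0.688. No spot intensities were used here, so nothing is said of detection, and precision is limited by the number of arrays.

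Names came from the platform's annotation, read in a recovered order of the 20280 rows. It gave 10576 probes 1 symbol and 507 several, which were not used. For 10548 probes the gene ID was found in RefSeq, and the symbol listed there was used. Probes of a gene were averaged, giving 8267 genes.

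The main fit used all 12 arrays and a two-sided moderated test (lmFit, then eBayes; limma 3.58.1, R 4.3.3), with replicate number as a block and Benjamini-Hochberg adjustment over all genes. No label says what arrays with the same number share, so the pairing comes from the title numbers alone. It was checked on deviations from the group means: 18 correlations between same-numbered arrays ran from 0.446 to 0.756, and 36 between other arrays from -0.561 to 0.037. Deviations within a group cancel out, so high correlations between same-numbered arrays lower the others. The lower range is thus no separate check. With 3 pairs an exact sign test cannot go below 0.25.

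Named genes are the 4 growth factors, list genes past the threshold (up to 4 a list and time, by smallest adjusted p), Id1 to Id3, and the 3 genes most correlated with each factor. Other genes of the lists that are named, such as close relatives and receptors of the 4, were chosen after their values had been seen. The 4 genes, the lists and the tests were chosen with earlier results of these data known. The alternatives were no pairing, the methods' t-test, fewer arrays, other scalings and other sets of rows.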

Additional observations from a re-analysis of the deposited data

Results flagged for a closer look

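For 3 of the 4 genes the level in treated cells differed between times by a test of that difference itself, in the paired limma fit. The controls have no time label, so a change with time in culture and a change in the response to BMP6 cannot be told apart. Between 4 and 24 h Vegfd rose by 0.393 on the log2 scale (adjusted p 0.00449), Fgf2 changed by -0.472 (0.0158) and Pdgfa by -0.439 (0.00933), each in the same direction in 3 of 3 pairs. Between 12 and 24 h Vegfd rose by 0.351 (0.0448), also in 3 of 3 pairs. None of the 4 differences passed without the pairing. Each group held 3 arrays, too few to look for an array that stands apart within a group.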

How the results depend on the processing

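Of the 4 growth factors, 3, 1 and 0 were called at 4, 12 and 24 h, and of the 88 pathway genes 17, 5 and 2. Without the replicate block these counts were 0, 0 and 0, and 1, 0 and 0; with the methods' t-test they were 0 throughout. With only the 2 groups compared in the fit, they were 2, 0 and 0, and 3, 1 and 0. With p-values adjusted over all probes, the pathway count at 24 h was 0. With the 9704 unnamed rows added to the table, a setting chosen after seeing the data, the pathway counts were 12, 2 and 0. The growth factor counts stayed at 3, 1 and 0 with centring, quantile normalization, the brightest probe, all probes or the unnamed rows. Leaving out 1 array, or the 4 arrays of a replicate number, gave 0 to 3 growth factors at 4 h and 0 to 1 at 12 h, and 3 to 19, 0 to 7 and 0 to 2 pathway genes. Without control replicate 2 or 4 h replicate 2 the pathway count at 4 h was 9, and without 4 h replicate 3 it was 10. With only the 2 groups, Pdgfa at 4 h (adjusted p 0.0771) and Vegfd at 12 h (0.0848) missed the threshold. Vegfd at 12 h also missed without all arrays of replicate 1 (0.104) or 2 (0.214). Its rise from 12 to 24 h missed with centring (0.0568), quantile normalization (0.0564), the brightest probe (0.0732), all probes (0.13) and the unnamed rows (0.118). Uncalled differences changed sign. Vegfd at 24 h was 0.012 after quantile normalization. With arrays left out, Vegfa ran from -0.006 to 0.174 at 4 h, -0.081 to 0.002 at 12 h and -0.106 to 0.055 from 4 to 24 h. Likewise Pdgfa at 24 h ran from -0.044 to 0.05, Vegfd from 4 to 12 h from -0.015 to 0.078, and Fgf2 from 12 to 24 h from -0.15 to 0.003. The cause of these differences was not tested.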
